A study of Homo sapiens with 6 samples.

Results

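The 56 genes described here encode proteins that build the ribosome in the nucleolus: components of the small subunit processome, factors that mature the 40S and 60S subunits, and core proteins of the small nucleolar ribonucleoproteins (snoRNPs). They were chosen by symbol, and each matched 1 of the 20289 rows of the expression table. All 56 were among the 10592 genes tested, those with a 6-library mean of 1 FPKM or more (FPKM is the number of sequenced fragments scaled to transcript length and library size). The libraries hold enriched mRNA of RKO, a line of colorectal cancer cells from a human tumour. The control group carried a control short hairpin RNA (shControl, n = 3 libraries) and the other group a hairpin against TRMT6 (shTRMT6, n = 3 libraries); the latter are called the knockdown below. The hairpin sequences are not among the sources used here. The labels do not say whether replicates were separate cultures, so each p-value is set against a spread between libraries that may be technical. TRMT6 is the non-catalytic subunit of the methyltransferase that makes 1-methyladenosine in tRNA, and the study's title links that modification to histone synthesis in colorectal cancer.

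Ribosome assembly starts on the nascent precursor of rRNA, which RNA polymerase I makes in the nucleolus. The UTP-A and UTP-B complexes and the U3 snoRNP bind it and form the small subunit processome, in which the precursor of 18S rRNA is folded and cut. Box C/D snoRNPs carry the methyltransferase fibrillarin and box H/ACA snoRNPs the pseudouridine synthase dyskerin, each directed to its site by a guide RNA. Further factors, such as the PeBoW complex, assemble the large subunit. Transcription of many of these genes is driven by MYC, which binds the E-box sequence with its partner MAX.

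TRMT6 read 14.43, 17.96 and 16.85 FPKM in the controls and 1.58, 1.73 and 1.09 FPKM in the knockdown, 11.2-fold lower (log2 fold change -2.82, SE 0.13, adjusted p = 4.33e-08 from limma; exact two-sided permutation p = 0.1, the smallest that 3 against 3 allows). Since cells were measured in bulk, fewer cells making an mRNA and less of it per cell cannot be told apart here or below. Depth was estimated from the steps between low FPKM values. It was 20.35, 26.9 and 28.6 M fragments (mega-fragments) in shControl replicates 1 to 3 and 20.25, 17.9 and 19.3 M in shTRMT6. Each knockdown estimate was below each control, though shControl replicate 1 and shTRMT6 replicate 1 were nearly level. The part of depth in the results was not tested. The epithelial markers KRT18, KRT8, CDX2 and EPCAM had a mean of at least 1 FPKM, and CDH1, KRT19 and VIL1 were listed at 0 in all 6 libraries. Of 5 leukocyte markers only CD68, which other cells also make, was above 1 FPKM, and none of 5 fibroblast markers was. The summed level of the epithelial markers ran from 123.63 to 156.07 FPKM in the controls and from 200.99 to 213.63 FPKM in the knockdown, mostly KRT18; its part in the results was not tested.

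A sequence feature that the choice of genes did not use was more frequent in promoters of the members than in those of tested genes. RefSeq promoter windows (GRCh38.p14, 250 bases before to 50 after the transcription start) were found for 48 members, 8 of them with 2 windows. Of these 56 windows, 23 (41.1%) hold the E-box CACGTG, whose letters read the same on both strands. The share was 9.76% of 12647 windows of tested genes and 7.26% of all 35116 windows. Of the 26 E-boxes in members' windows 21 (80.8%) lie within 50 bases of the start, against 39.9% in the windows of tested genes; 2 windows of a gene can overlap and then count 1 site in both. The 8 base ETS motif CCGGAAGT (either strand) was in 17.9% of members' windows and 8.33% of those of tested genes. A palindrome like the motif of NRF1 was in 7.14% against 2.11%. The CCAAT box was in 41.1% against 35.1%, the GC box GGGCGG in 69.6% against 68.5%, and TATAAA in 3.57% against 5.56%. These are matches of letters and no binding was measured.

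The stretches from 70 bases before the start to base 30 are shown for 7 members, 5′ to 3′, with the E-box in capitals. The first 3 belong to members that rose in shTRMT6 and hold an E-box near the start: WDR43 (chr2:28894597-28894696, plus strand), PNO1 (chr2:68157818-68157917, plus strand) and NOP10 (chr15:34343107-34343206, minus strand).
WDR43: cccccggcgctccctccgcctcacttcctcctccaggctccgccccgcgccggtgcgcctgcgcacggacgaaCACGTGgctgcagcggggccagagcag
PNO1: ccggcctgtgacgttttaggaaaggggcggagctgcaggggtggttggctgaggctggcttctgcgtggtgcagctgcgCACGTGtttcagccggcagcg
NOP10: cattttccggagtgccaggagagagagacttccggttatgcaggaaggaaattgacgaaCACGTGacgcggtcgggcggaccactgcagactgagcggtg
The next 2 hold an E-box at a like distance, and their mRNAs did not pass the test: FBL (chr19:39846350-39846449, minus strand) and UTP4 (chr16:69132579-69132678, plus strand).
FBL: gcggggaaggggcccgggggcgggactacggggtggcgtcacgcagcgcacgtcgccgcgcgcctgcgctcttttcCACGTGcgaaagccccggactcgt
UTP4: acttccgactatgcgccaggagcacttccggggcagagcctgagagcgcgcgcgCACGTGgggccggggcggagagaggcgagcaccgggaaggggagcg
The last 2 belong to UTP15 (chr5:73565673-73565772, plus strand) and WDR75 (chr2:189441404-189441503, plus strand), 2 of the members that rose at least 1.5-fold, whose windows hold no E-box.
UTP15: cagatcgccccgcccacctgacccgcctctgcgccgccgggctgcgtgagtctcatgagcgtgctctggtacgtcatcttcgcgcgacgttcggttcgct
WDR75: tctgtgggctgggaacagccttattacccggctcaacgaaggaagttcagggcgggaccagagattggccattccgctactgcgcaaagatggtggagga

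Among the members 24 rose in shTRMT6 (42.9%), 1 fell and 31 did not pass. Over all genes tested, 19.3% were called higher and 16.1% lower. Counts by role below rest on 3 to 14 genes each, and differences between roles were not tested. The roles also differ in median transcript GC content, from 40.7% in UTP-A to 58.2% in PeBoW. Calls are from limma on log2(FPKM + 1) with Benjamini-Hochberg adjustment over all 10592 genes and a threshold of 0.05, two-sided; every adjusted p below is from this model unless another setting is named. The median log2 fold change of the members was 0.23 (1.17-fold), against 0.024 for all genes tested, and 46 of 56 values were above 0, where 5603 of 10592 were over all genes tested. All 3 shTRMT6 libraries lay above all 3 shControl libraries for 27 members and below them for 3 (EMG1, GAR1 and NOL9); over all genes tested the shares were 26.2% and 22.1%. Of the 56 members 8 rose at least 1.5-fold. Of all 10592 genes tested, 933 had a ratio of mean FPKM that high, called or not. Summed over the members, the level was 0.603%, 0.621% and 0.584% of the table's total FPKM in shControl replicates 1 to 3 and 0.685%, 0.716% and 0.631% in shTRMT6. Leaving out shTRMT6 replicate 1 gave 14 members called higher, and leaving out replicate 2 of that group gave 12. Those 2 omissions also lowered the count of called genes over all genes tested from 3746 to 2443 and 2396. With no filter on low values 16 were called higher; WDR3, WDR36, UTP3, UTP11, DDX52, BRIX1, NCL and NPM1 no longer passed.

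**Figure D1:**
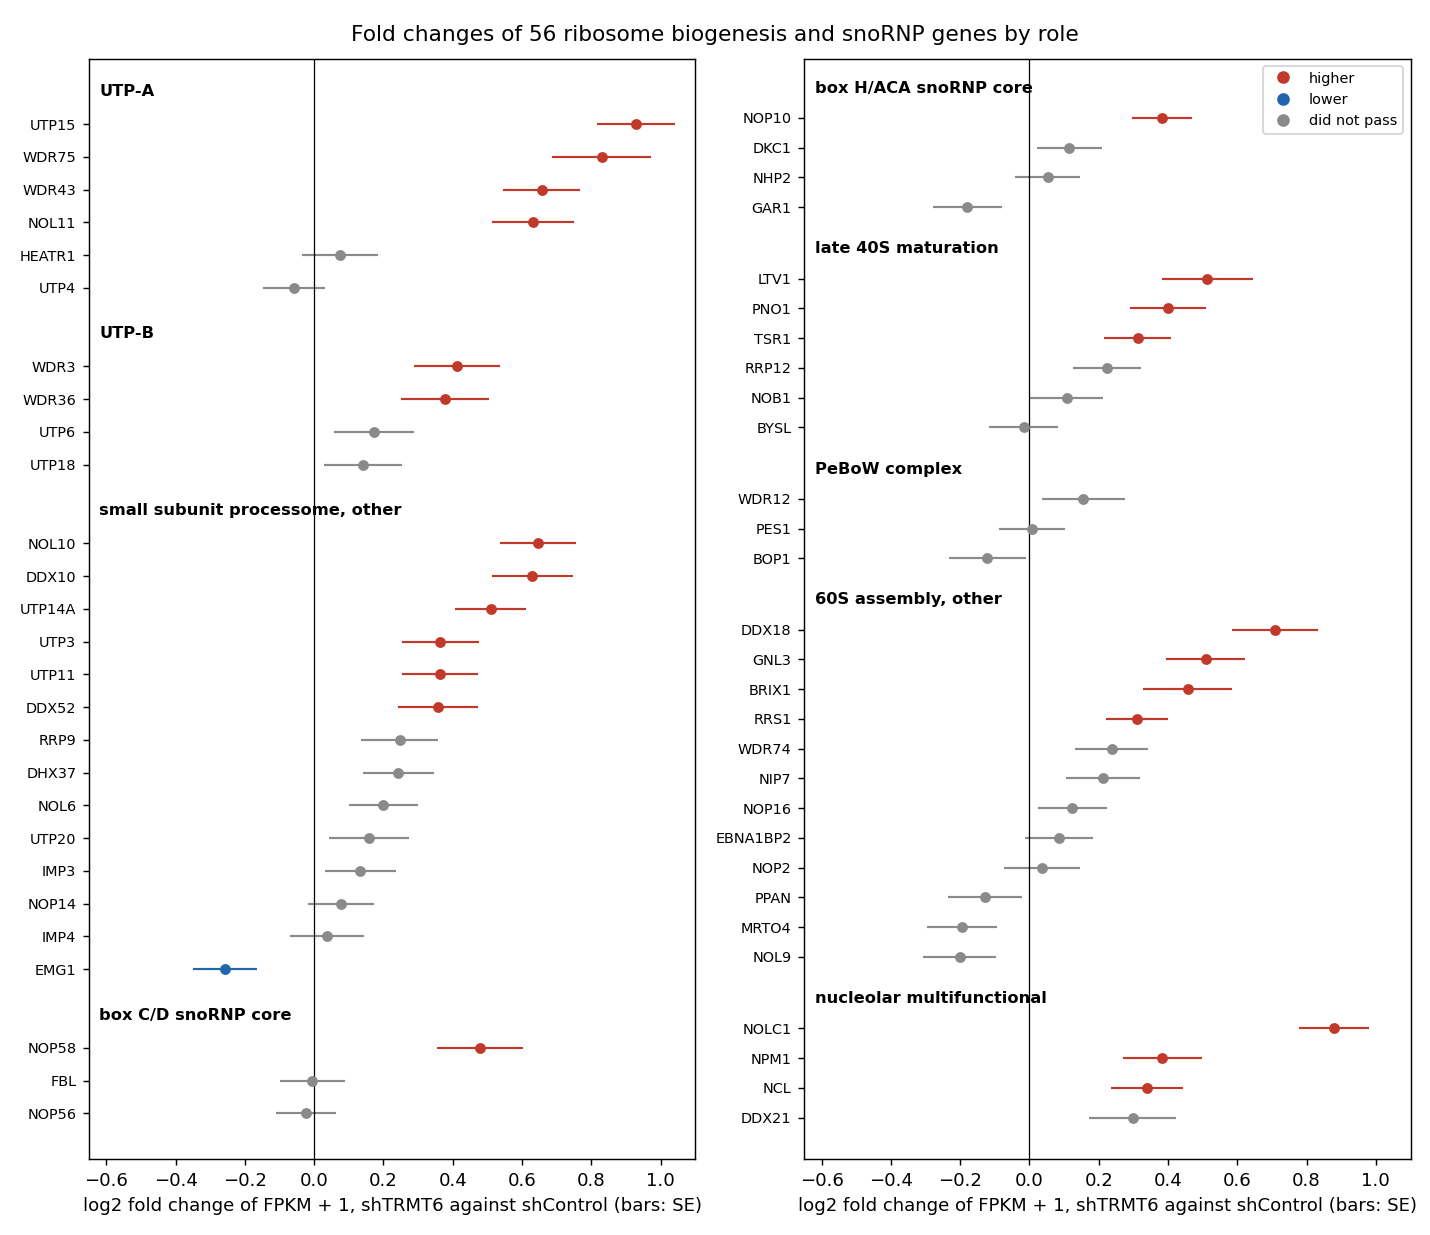
Log2 fold change of each of the 56 members (points, coloured by call; horizontal bars are the limma SE, n = 3 libraries a group), in role groups. In the UTP-A group 4 of 6 members rose, in the PeBoW group none of 3 passed, and EMG1 is the one member called lower. Over all genes tested 19.3% were called higher. Median transcript GC content was 40.7% in UTP-A and 58.2% in PeBoW, and differences between role groups were not tested.

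The UTP-A complex, which binds the start of the rRNA precursor and is needed for its transcription, had the highest median of the role groups: 4 of 6 subunits rose and 2 did not pass (median log2 fold change 0.64). UTP15 (ENSG00000164338; chromosome 5, bases 73565443 to 73583377 on the plus strand in GENCODE release 29) read 9.19, 11.19 and 9.68 FPKM in the controls and 19.01, 21.85 and 19.00 FPKM in the knockdown. Its lowest shTRMT6 library lay far above its highest control. UTP15 had a log2 fold change of 0.93 (SE 0.11, adjusted p = 0.000103; 1.99-fold), the highest of the 56 here but below NOLC1 with the GC correction (0.71 against 0.87), with or without a replicate block, and with quantile normalization (0.89 against 0.903). WDR75 (chromosome 2, bases 189441433 to 189475565), a beta-propeller subunit, read 11.56, 17.44 and 13.32 FPKM in the controls and 26.55, 28.45 and 21.96 FPKM in the knockdown. The groups did not overlap, and both were wider than for UTP15 (log2 fold change 0.83, SE 0.14, adjusted p = 0.000912). WDR43, another propeller subunit, went from 28.02, 34.97 and 28.80 FPKM to 53.73, 47.06 and 45.37 FPKM (log2 fold change 0.66, SE 0.11, adjusted p = 0.000836; 1.59-fold). NOL11, a subunit known from animals, went from 18.10, 22.30 and 20.67 FPKM to 31.79, 36.40 and 28.26 FPKM (0.63, SE 0.12, adjusted p = 0.00147; 1.58-fold). In both, every knockdown library was above every control. The 4 calls held in all 16 alternative analyses.

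The other 2 subunits of UTP-A did not move with them. UTP4, the protein altered in a childhood cirrhosis of the liver, read 61.09, 59.43 and 57.01 FPKM in the controls and 58.75, 56.78 and 54.96 FPKM in the knockdown, and the groups overlapped (log2 fold change -0.06, SE 0.09, adjusted p = 0.649). HEATR1, a large helical-repeat scaffold, averaged 11.03 ± 1.06 and 11.6 ± 0.368 FPKM (SD, n = 3; adjusted p = 0.623). The FPKM of UTP15 relative to UTP4 in the same library was 0.1504, 0.188 and 0.1698 for the controls and 0.324, 0.385 and 0.346 for the knockdown. This ratio and those given for the snoRNP cores were chosen after the values were seen and are given without a test. Annotated exons of UTP4 and HEATR1 overlap those of a gene on the other strand, CHTF8 (log2 fold change -0.81) and LGALS8 (0.70), and without a known strand setting fragments from the overlap cannot be assigned. UTP15 overlaps ANKRA2 in the same way (mean 4.09 FPKM, log2 fold change 0.40, adjusted p = 0.0559).

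UTP-B joins the particle together with the U3 snoRNP. Of its 4 subunits among the members, the propeller proteins WDR3 and WDR36 rose, and UTP18 and UTP6 did not pass. PWP2 and TBL3, subunits counted below with other assembly factors, did not pass (log2 fold changes 0.02 and -0.14, adjusted p = 0.903 and 0.402). WDR3 read 6.46, 8.89 and 8.51 FPKM in the controls and 10.66, 11.07 and 10.77 FPKM in the knockdown. The shTRMT6 libraries lay close together and shControl replicate 1 lay below the other controls (log2 fold change 0.41, SE 0.12, adjusted p = 0.0204). WDR36 had nearly the same values, 6.52, 9.08 and 8.71 FPKM against 10.84, 11.09 and 10.26 FPKM (0.38, SE 0.13, adjusted p = 0.0336). The calls of WDR3 and WDR36 ended without shTRMT6 replicate 1 or 2, with a correction for GC content and with no filter on low values (adjusted p = 0.0628 and 0.089); that of WDR36 also ended without shControl replicate 1 or shTRMT6 replicate 3. UTP18, the most abundant of the 4, read 28.08, 34.28 and 31.43 FPKM against 34.23, 38.71 and 30.93 FPKM, with overlap (0.14, SE 0.11, adjusted p = 0.345). UTP6 averaged 9.68 ± 0.129 and 11.1 ± 1.495 FPKM (SD, n = 3; adjusted p = 0.264).

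Of 14 other processome proteins 6 rose, 1 fell and 7 did not pass (median 0.25 in log2 fold change). NOL10, a propeller protein, read 9.64, 11.33 and 11.29 FPKM in the controls and 18.49, 17.49 and 16.15 FPKM in the knockdown, with a wide gap between the groups (log2 fold change 0.65, SE 0.11, adjusted p = 0.000832). The helicase DDX10 read 8.13, 9.60 and 8.55 FPKM against 15.14, 15.01 and 12.25 FPKM (0.63, SE 0.12, adjusted p = 0.00154). UTP14A, which activates the helicase DHX37 to take the processome apart, rose from 10.33, 10.39 and 11.50 FPKM to 15.33, 16.13 and 15.64 FPKM (0.51, SE 0.10, adjusted p = 0.00232). Its libraries lay close together, with an SD of 0.659 FPKM in the controls and 0.403 FPKM in the knockdown. UTP3 went from 16.03, 18.46 and 16.35 FPKM to 22.54, 24.39 and 19.51 FPKM, without overlap (0.36, SE 0.11, adjusted p = 0.0226). UTP11 and the helicase DDX52 rose as well, by 0.36 on the log2 scale each (adjusted p = 0.0217 and 0.0286). Leaving out shControl replicate 3 or shTRMT6 replicate 1 or 2 ended the calls of UTP3, UTP11 and DDX52, and leaving out shControl replicate 1 that of DDX52. With no filter on low values their adjusted p were 0.0522, 0.0512 and 0.0629.

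EMG1, which methylates a pseudouridine of 18S rRNA, was the one member called lower. It read 51.62, 50.29 and 46.75 FPKM in the controls and 43.13, 40.13 and 40.52 FPKM in the knockdown, with no overlap (log2 fold change -0.26, SE 0.093, adjusted p = 0.045). The call ended without any 1 of the 6 libraries and with the GC correction (adjusted p = 0.0545). Of its annotated 75-base windows 43.6% also occur in LPCAT3, which lies on the other strand, or C1S. LPCAT3 fell by 0.86 on the log2 scale (adjusted p = 0.000261), and its part in the EMG1 value was not tested.

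The processome members IMP4, IMP3, RRP9 and DHX37 did not pass. MPHOSPH10, a U3-associated protein counted below with other assembly factors, rose 1.89-fold (adjusted p = 0.00226). IMP4 read 170.71, 134.42 and 131.21 FPKM in the controls and 149.69, 150.18 and 144.88 FPKM in the knockdown: shControl replicate 1 was above every other library (log2 fold change 0.04, SE 0.11, adjusted p = 0.812). IMP3, its partner, averaged 67.6 ± 7.35 and 74.0 ± 4.68 FPKM (SD, n = 3; adjusted p = 0.33). RRP9, the U3-specific propeller protein, averaged 42.3 ± 5.57 and 50.2 ± 3.82 FPKM, and the helicase DHX37 16.3 ± 1.28 and 19.4 ± 0.780 FPKM (SD, n = 3). Their adjusted p were 0.0991 and 0.0799, and 0.0174 and 0.0419 with a replicate block. NOL6, NOP14 and UTP20 did not pass, with log2 fold changes of 0.20, 0.08 and 0.16.

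**Figure D2:**
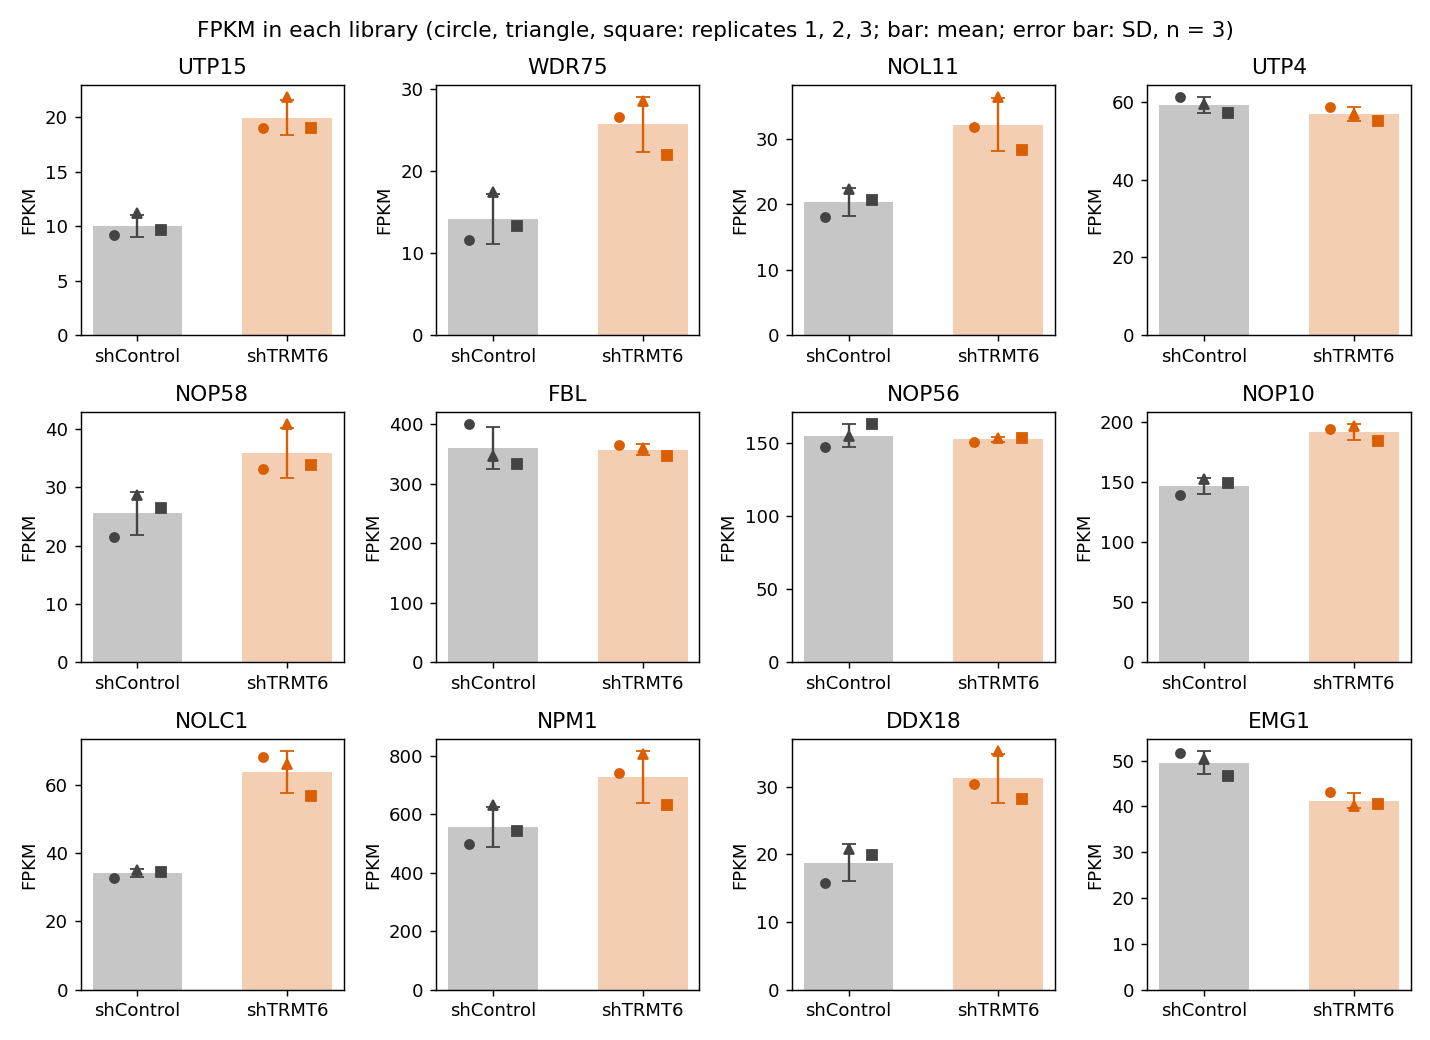
FPKM of 12 members in each library (circle, triangle and square: replicates 1, 2 and 3; bars: group means; error bars: SD, n = 3). UTP15, WDR75, NOL11, NOP58, NOP10, NOLC1, NPM1 and DDX18 lie higher in all shTRMT6 libraries, EMG1 lies lower, and UTP4, FBL and NOP56 overlap between groups.

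Of the 3 core proteins of the box C/D snoRNP among the members 1, NOP58, was called higher, where 19.3% of all genes tested were. Differences between the 3 members were not tested. The core protein SNU13, counted below with other assembly factors, did not pass (log2 fold change 0.06, adjusted p = 0.636). NOP58, one of the scaffold pair, read 21.50, 28.74 and 26.42 FPKM in the controls and 33.11, 40.86 and 33.81 FPKM in the knockdown. It rose 1.41-fold without overlap (log2 fold change 0.48, SE 0.12, adjusted p = 0.00927), and the call ended without shTRMT6 replicate 2. Its counterpart NOP56 read 147.12, 154.66 and 162.75 FPKM against 150.30, 153.47 and 153.19 FPKM, with all shTRMT6 values inside the control range (-0.02, SE 0.087, adjusted p = 0.865). FBL, fibrillarin, the methyltransferase itself, read 400.55, 346.93 and 332.89 FPKM against 364.91, 360.65 and 347.64 FPKM, also inside the control range (adjusted p = 0.971). The mRNA of NOP58 relative to that of NOP56 was 0.165 ± 0.020 in shControl and 0.236 ± 0.0264 in shTRMT6 (SD, n = 3), while FBL relative to NOP56 was 2.34 ± 0.348 and 2.35 ± 0.0793. With the GC correction the log2 fold changes were 0.29 for NOP58 (adjusted p = 0.0188), 0.16 for FBL and 0.13 for NOP56, and with a replicate block as well FBL was also called higher (adjusted p = 0.0123). The GC content of the transcripts is 41.3% for NOP58, 57.9% for FBL and 56.04% for NOP56. FPKM is per length, so the scaffold pair differ several-fold in level although 1 snoRNP holds both.

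In the box H/ACA core 1 of 4 proteins rose (25.0%), near the 19.3% of all genes tested. NOP10, the smallest core protein, rose from 139.14, 152.33 and 149.09 FPKM in the controls to 194.14, 196.63 and 184.25 FPKM in the knockdown. The rise was 1.31-fold with tight groups (log2 fold change 0.38, SE 0.087, adjusted p = 0.00483) and was called in all 16 alternative analyses. The pseudouridine synthase DKC1 averaged 51.6 ± 2.399 and 56.03 ± 3.55 FPKM (SD, n = 3; adjusted p = 0.361). The RNA-binding NHP2 read 314.86, 279.92 and 260.42 FPKM against 291.15, 306.98 and 286.35 FPKM, with overlap (0.05, SE 0.095, adjusted p = 0.698). GAR1 read 16.24, 17.25 and 16.32 FPKM in the controls and 15.23, 14.30 and 14.12 FPKM in the knockdown; all 3 were lower, but the difference did not pass (log2 fold change -0.18, SE 0.099, adjusted p = 0.176). NOP10 relative to GAR1 went from 8.84 ± 0.284 to 13.2 ± 0.515 (SD, n = 3).

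Among factors that finish the 40S subunit 3 of 6 rose. LTV1, a factor of pre-40S export, read 11.80, 16.10 and 15.04 FPKM in the controls and 20.54, 23.83 and 18.11 FPKM in the knockdown (log2 fold change 0.51, SE 0.13, adjusted p = 0.00939; 0.34 with the GC correction, adjusted p = 0.0159). PNO1, the partner of the endonuclease NOB1, went from 16.28, 18.94 and 15.85 FPKM to 23.75, 23.99 and 20.52 FPKM (0.40, SE 0.11, adjusted p = 0.0135). TSR1, a GTPase-like factor bound to the pre-40S particle, went from 40.14, 44.69 and 41.30 FPKM to 54.04, 55.27 and 48.20 FPKM (0.31, SE 0.097, adjusted p = 0.0239). For LTV1, PNO1 and TSR1 every knockdown library was above every control. The calls of PNO1 and TSR1 ended when shControl replicate 3 or shTRMT6 replicate 1 or 2 was left out. NOB1, which makes the final cut of 18S rRNA, read 100.96, 86.75 and 88.99 FPKM against 103.92, 107.86 and 87.13 FPKM, with overlap (0.11, SE 0.11, adjusted p = 0.451). BYSL and the export factor RRP12 did not pass either, at 0.986-fold and 1.17-fold.

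None of the 3 PeBoW subunits, which are needed to process the internal spacer before 28S rRNA, passed the test. PES1 read 77.50, 68.89 and 72.76 FPKM in the controls and 78.50, 73.46 and 68.48 FPKM in the knockdown, with full overlap (log2 fold change 0.01, SE 0.095, adjusted p = 0.959). BOP1 averaged 76.1 ± 12.2 and 69.4 ± 1.75 FPKM (adjusted p = 0.417) and WDR12 7.79 ± 0.789 and 8.80 ± 1.02 FPKM (SD, n = 3; adjusted p = 0.336). WDR12 thus stood at a far lower level per length than the other subunits.

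Of 12 other 60S factors 4 rose and 8 did not pass. The helicase DDX18 read 15.70, 20.76 and 19.91 FPKM in the controls and 30.37, 35.26 and 28.20 FPKM in the knockdown (log2 fold change 0.71, SE 0.12, adjusted p = 0.001), with no overlap. GNL3, the nucleolar GTPase nucleostemin, read 36.02, 45.59 and 41.91 FPKM against 61.04, 64.26 and 51.59 FPKM (0.51, SE 0.11, adjusted p = 0.00455). Nucleostemin's lowest knockdown library was above its highest control. BRIX1, an early assembly factor, went from 21.10, 27.25 and 23.58 FPKM to 32.12, 39.10 and 28.84 FPKM (0.46, SE 0.13, adjusted p = 0.0143); the call ended without shTRMT6 replicate 2 and with no filter on low values (adjusted p = 0.06). RRS1, which helps to bring the 5S particle into the subunit, was nearly constant in the controls at 40.78, 40.56 and 40.45 FPKM and went to 52.59, 49.82 and 49.43 FPKM (0.31, SE 0.09, adjusted p = 0.0168; 0.47 with the GC correction, adjusted p = 0.00101). Its call ended on leaving out any of shControl replicates 2 and 3 and shTRMT6 replicates 1 and 2. NOP16, the most abundant that did not pass, read 86.87, 83.96 and 77.19 FPKM against 87.69, 100.56 and 82.84 FPKM, with overlap (0.12, SE 0.10, adjusted p = 0.355). WDR74 had an adjusted p of 0.0923, and 0.0209 with a replicate block. NIP7, EBNA1BP2 and the rRNA methyltransferase NOP2 gave 1.17-fold, 1.06-fold and 1.03-fold. The polynucleotide kinase NOL9, the stalk assembly factor MRTO4 and PPAN gave log2 fold changes of -0.20, -0.20 and -0.13 and did not pass.

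The nucleolar proteins with several roles include the 2 most abundant members, NPM1 and NCL, and 3 of the 4 rose. NOLC1, the chaperone of snoRNPs also called Nopp140 (ENSG00000166197; chromosome 10, bases 102152176 to 102163871), read 32.72, 35.06 and 34.31 FPKM in the controls and 68.15, 66.08 and 56.57 FPKM in the knockdown. It had the lowest adjusted p of the members (log2 fold change 0.88, SE 0.10, adjusted p = 7.05e-05; 1.87-fold). NPM1, nucleophosmin, read 498.04, 629.63 and 540.85 FPKM against 741.89, 805.88 and 630.79 FPKM: shTRMT6 replicate 3 reached barely above shControl replicate 2 (0.38, SE 0.11, adjusted p = 0.0193). NCL, nucleolin, read 332.25, 397.50 and 363.56 FPKM against 467.70, 507.48 and 409.77 FPKM (0.34, SE 0.10, adjusted p = 0.0228). The calls of NPM1 and NCL ended when shControl replicate 1 or shTRMT6 replicate 1 or 2 was left out, and with no filter on low values (adjusted p = 0.0778 and 0.0676). That of NPM1 also ended with quantile normalization (log2 fold change 0.21, adjusted p = 0.154) and the GC correction. DDX21, a helicase that couples polymerase I to processing, overlapped between groups (42.1 ± 6.71 and 51.8 ± 6.001 FPKM; SD, n = 3; adjusted p = 0.0797, or 0.0077 with a replicate block). NPM1 shares 12.3% of its annotated windows with other genes, processed pseudogenes among them, and the part of these genes in its value was not tested. Of all members 14 share more than 10% of their windows with other genes, and 4 of these rose. Exons of 27 members overlap those of a gene on the other strand, a tested one in 13 cases.

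**Figure D3:**
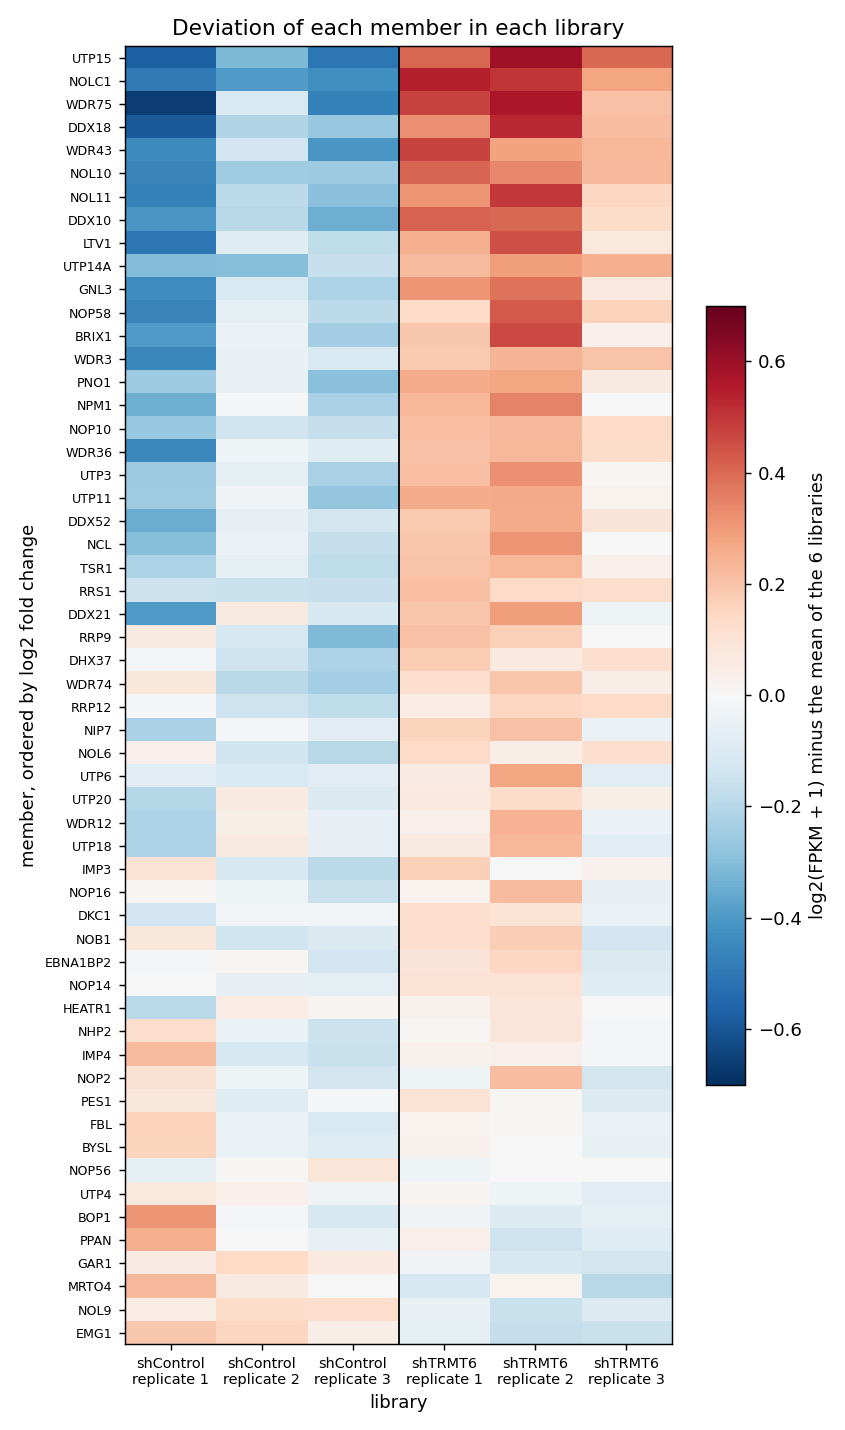
Deviation of log2(FPKM + 1) of each member from its mean over the 6 libraries, with members ordered by log2 fold change. shControl replicate 1 is the lowest control for 31 of 56 members and also the highest for 22, and shTRMT6 replicate 3 is the lowest shTRMT6 library for 44.

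The libraries of a group were not alike across the members. shControl replicate 1 was the lowest of its group for 31 members and the highest for 22. Its deviation from the mean of the 6 libraries rose by 0.28 in log2 per 10 points of transcript GC content across the members. Controls 2 and 3 had slopes of 0.0018 and 0.0462, and the knockdown libraries -0.16 to -0.067. Across tested genes with a known transcript, slopes were 0.22, -0.0046 and 0.034 in shControl replicates 1 to 3. In the knockdown they ran from -0.15 to -0.025. Among the shTRMT6 libraries replicate 3 was the lowest for 44 members and replicate 2 the highest for 37. Median deviations of the members were -0.19, -0.055 and -0.16 in shControl and 0.15, 0.22 and 0.0082 in shTRMT6.

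The share of members called higher differed with the GC content of their transcripts. In the tertile of tested genes with the lowest GC content (up to 44.3%) 17 of 23 members were called higher (73.9%), where 33.6% of all genes in it were. In the middle tertile 6 of 16 members rose (37.5%) against 16.8% of genes. In the upper tertile (from 54.5%) 1 of 17 rose (5.88%), RRS1, against 7.43% of genes. Across the 56 members the correlation of log2 fold change with GC content was r = -0.60 (Spearman's rho -0.64), and across all 10573 tested genes with a known transcript it was -0.39; genes share their libraries and are not independent replicates. Without shControl replicate 1 the members' r was -0.42, and 14, 5 and 6 members were called higher in the 3 tertiles.

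**Figure D4:**
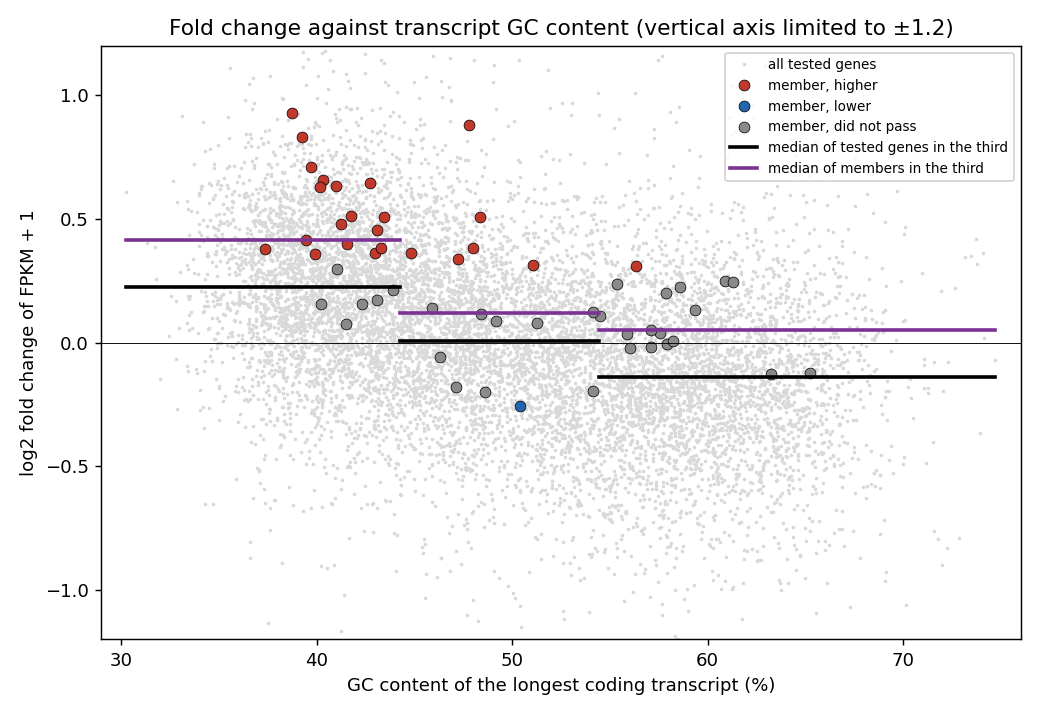
Log2 fold change against GC content of the longest coding transcript for all tested genes (grey) and the members (coloured by call), with medians of each tertile as lines (genes beyond the vertical axis are not drawn). Called members lie mostly at low GC content, and the members' median is above that of the tested genes in all 3 tertiles (0.41 against 0.23, 0.12 against 0.0060, and 0.052 against -0.14).

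The median of the members lay above that of all tested genes in each tertile: 0.41 against 0.23, 0.12 against 0.0060, and 0.052 against -0.14. When each library's smooth trend on GC content was removed, 26 members rose and none fell, and their median was 0.22 against 0.034 for all genes. By tertile 11, 7 and 8 members then rose, and r with GC content was -0.079. The correction ended the calls of DDX52, NPM1, PNO1, UTP11, WDR3, WDR36 and EMG1. It brought those of DHX37, IMP3, NHP2, NOL6, NOP16, RRP12, RRP9 and WDR74, all higher. RRP9 had a log2 fold change of 0.25 before and 0.43 after correction (adjusted p = 0.00554), and DHX37 0.24 and 0.42 (adjusted p = 0.00194). Over all genes tested, 4085 were called in either direction with the GC correction, against 3746 in the main analysis. With a replicate block added to the GC correction, 34 members were higher and 2 lower, and 5055 of all genes tested were called. The 12 members called higher in all 16 alternatives were UTP15, WDR75, WDR43, NOL11, NOL10, DDX10, UTP14A, NOP10, LTV1, DDX18, GNL3 and NOLC1. Of these, LTV1 shares 28.0% of its annotated windows with other genes, and its adjusted p was 0.0496 with no filter on low values.

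Members with and without an E-box were among those that rose. Of 22 members with an E-box in a promoter window 6 rose (27.3%; WDR43, UTP14A, LTV1, GNL3, PNO1 and NOP10), with a median log2 fold change of 0.15. Of 26 without one 12 rose (46.2%) and 1 fell (median 0.22). The other 8 members, 6 of which rose, had no window in the table. Among all tested genes with a window, 18.9% of 1148 with an E-box and 19.6% of 7525 without one were called higher. MYC mRNA, named outside the rule for genes, read 217.66, 208.84 and 215.72 FPKM in the controls and 264.96, 230.88 and 246.29 FPKM in the knockdown; the groups did not overlap, but the difference did not pass (log2 fold change 0.21, SE 0.089, adjusted p = 0.0867).

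**Figure D5:**
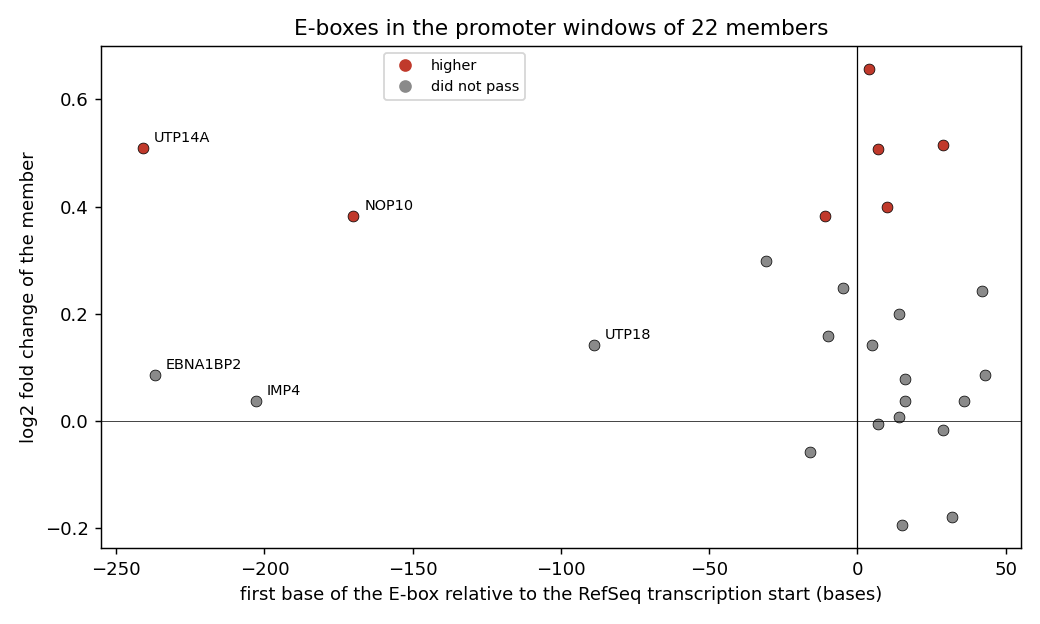
First base of each E-box relative to the RefSeq transcription start (horizontal axis, bases) against the log2 fold change of the member (vertical axis), for 22 members. Sites cluster within 50 bases of the start, and members called higher (red) and members that did not pass (grey) both have them there.

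A part of the members also hold snoRNA genes, more often than tested genes do. In GENCODE release 29, 9 of the 56 members (16.1%) hold at least 1 snoRNA gene within their own span and on their strand, 28 in all, against 2.01% of tested genes. The hosts are NOP56, NOP58, DKC1, GNL3, NCL, WDR43, NOL11, TSR1 and PPAN, so part of the snoRNP and processome proteins are made from transcripts whose introns release guide RNAs. Of the 9 hosts 6 rose (NOL11, WDR43, NOP58, TSR1, GNL3 and NCL), and 23.1% of the 212 tested hosts were called higher. NOP56 with 5 snoRNA genes did not pass, and GNL3 with 6 did. The snoRNAs themselves were not analysed here.

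The rest of the pathway was taken as 117 further genes in 4 lists. Of 115 tested, 46 rose and 7 fell; their median log2 fold change was 0.24, next to 0.23 for the 56 members. With a replicate block 61 were higher and 9 lower. Without shTRMT6 replicate 2 the count of risers was 28, and 2 were lower without shControl replicate 2, shTRMT6 replicate 1 or shTRMT6 replicate 2. Among 74 tested other assembly factors 32 rose and 5 fell. SBDS, which releases the anti-association factor eIF6 from the 60S subunit, rose 1.87-fold (adjusted p = 0.000146), and NIFK, a partner of the proliferation antigen Ki-67, 1.85-fold (adjusted p = 0.000244). BUD23, a methyltransferase of 18S rRNA as EMG1 is, fell from 114.1 ± 11.7 to 74.1 ± 4.10 FPKM (SD, n = 3; log2 fold change -0.61, adjusted p = 0.000641), and the helicase DDX51 fell by 0.41 on the log2 scale (adjusted p = 0.00936). Of 11 assembly factors of snoRNPs 4 rose and none fell, with TAF9, also a subunit of the general transcription factor TFIID, at 1.76-fold (adjusted p = 0.000157). RPAP3, a co-chaperone, was at 1.52-fold (adjusted p = 0.014) although its groups overlapped. In the RNA exosome, which trims rRNA precursors, 4 of 14 rose (28.6%, against 19.3% of all genes tested) and 1 fell. The nuclease DIS3 rose 1.65-fold (adjusted p = 0.00281), MPHOSPH6 1.42-fold (adjusted p = 0.0105), and EXOSC8 fell by 0.33 on the log2 scale (adjusted p = 0.0292). Of 16 genes listed for RNA polymerase I transcription, MYC among them, 6 rose and 1 fell. The initiation factor RRN3 rose 1.85-fold (adjusted p = 0.000163) and the subunit POLR1B 1.56-fold (adjusted p = 0.00103), and TAF1C of the promoter selectivity factor fell by 0.33 on the log2 scale (adjusted p = 0.0303).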

How the data were processed

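RNA sequencing of 6 libraries of RKO cells was used. Per the labels' protocols, RNA was extracted with TRIzol and libraries were made with a NEBNext Ultra kit. The authors deposited FPKM values for each gene, per the file headers. RSEM, StringTie 1.3.1, HISAT2, Bowtie2 2.2.8 and fastp 0.18.0 are named in the submitters' processing notes, with no roles; the build, the annotation and the strand setting are not given in the sources used here. Columns named NC and SH were matched to shControl and shTRMT6 by group and replicate number.

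Gene IDs were turned into symbols with a name table (20257 of 20289 matched), and GC content, lengths, positions and shared 75-base windows from GENCODE release 29 (GRCh38). The GC content is that of the longest coding transcript. The 10592 genes averaging 1 FPKM or more were tested in R 4.3.3 by limma 3.58.1, with a trended prior, after taking log2(FPKM + 1); FPKM values are not counts, the log2 scale understates changes of low genes, and folds are ratios of mean FPKM. The model was also run on simulated data with no GC trend and no replicate effect, so that run does not bear on the calls made here. Depth was estimated from the period of FPKM times length in genes with 1 transcript.

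The members, lists and tests were chosen with earlier results of these data known. Per role, up to 4 called members ranked by absolute log2 fold change were named in full, with the most abundant that did not pass. From each other list up to 2 genes in each direction were named. EMG1, HEATR1, other members, MYC, PWP2, TBL3, SNU13 and MPHOSPH10 were added. Epithelial, fibroblast and leukocyte marker lists were checked. Alternatives were pseudocounts of 0.1 and 0.5, other filters, scalings and priors, a GC correction (lowess, span 0.3), a replicate block, and each library left out.

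Libraries with the same replicate number deviated together from their group means (r = 0.206, 0.364 and 0.17 across genes). Between different numbers r ran from -0.288 to 0.0936. Deviations from a mean of 3 libraries are not independent of each other, so these values do not settle a pairing. The meaning of a number is not stated in the labels. The main model therefore had no replicate block, and pairs by number were used only in the alternatives with a block.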

Additional observations from a re-analysis of the deposited data

How the results depend on the processing

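FPKM without counts leave the precision of single values unknown, and 3 libraries a group limit it further. The number of members called higher (24) was within 1.5 times in each alternative but the omissions of shTRMT6 replicates 1 and 2 (range 12 to 25 when 1 library is left out); it was 16 with no filter on low values, 26 with the GC correction and 34 with the replicate block and GC correction. The median log2 fold change moved by less than the spread between libraries in all of them. The replicate block added the calls of DDX21, DHX37, RRP9 and WDR74 (28 higher) and changed no other call of a member; over all genes it called 4954 against 3746. The number called lower, 1 (EMG1), was 2 with quantile normalization, 0 with the GC correction, 2 with the replicate block and GC correction, and 0 whichever library was left out; it was 0 over the 42 members that share at most 10% of their windows with other genes (20 of 42 higher), a check chosen after seeing the data. All genes called ran from 2396 to 3619 with 1 library left out. Of the other biogenesis genes 28 to 45 were then higher and 2 to 7 lower, and 4 were lower without a filter on low values and 3 with the GC correction. The causes were not tested, beyond fewer libraries in each omission.

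Members that did not pass changed sign in some alternatives. With the GC correction, alone or with the replicate block, log2 fold changes were -0.11 for HEATR1, -0.0059 for UTP20, -0.044 for WDR12, 0.16 for FBL, 0.13 for NOP56, 0.15 for BYSL, 0.063 for BOP1 and 0.055 for PPAN; FBL passed only with both. Quantile normalization gave -0.028 for NHP2 and 0.0072 for BYSL, and median-of-ratios scaling -0.027 for PES1. With 1 library left out the ranges were -0.060 to 0.074 for FBL, -0.062 to 0.056 for BYSL, -0.21 to 0.0027 for BOP1, -0.031 to 0.16 for IMP4, -0.040 to 0.057 for PES1, -0.058 to 0.014 for NOP56, -0.011 to 0.13 for NHP2 and -0.064 to 0.11 for NOP2.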
